A study of Mus musculus with 15 samples.

Results

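RNA-seq counts were compared between mouse embryonic stem cells (ESC) that lack functional Hmga1 (Hmga1 KO, samples a and b) and the same KO cells carrying an inserted Hmga2 cDNA (Hmga2 add-back, samples a and b). The genes described are those averaging 10 counts or more over the 9 samples of the KO experiment, which were 13912 of the 21662 in the table. The comparison used 4 of the 15 samples of the series. The 3 WT samples and the 2 samples of the Hmga1 add-back, the KO cells with an Hmga1 cDNA in place of the Hmga2 cDNA, shared the model fit and served as reference levels.

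All 4 genotypes derive from 1 line of mixed 129Sv and C57Bl/6 origin that also expresses the biotin ligase BirA and was grown in serum with LIF. In the KO, Cas9 cutting shifted the reading frame of Hmga1 in a single clone. Both add-backs were made in that KO by Cre-mediated insertion of a biotin-tagged cDNA at 1 unique genomic site, driven by the CAG promoter, which is active in most cell types. Every genotype is therefore 1 cell line, and a difference between lines cannot be told apart from a difference between clones. The study calls the letters a and b batches, and its batch term grouped libraries by preparation day and flow cell. Cultures were harvested on different days.

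Hmga1 and Hmga2 are small architectural chromatin proteins. Each carries 3 AT-hooks, short basic segments whose arginine-glycine-arginine core inserts into the minor groove of AT-rich DNA. Hmga2 is abundant in embryonic and transformed cells, its mRNA is a classical target of the let-7 microRNAs, and Igf2bp2, which encodes an RNA-binding protein, is its best known downstream gene. The question of the comparison is which transcripts differ once Hmga2 is supplied to cells without Hmga1.

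The part of Hmga2 that carries the AT-hooks is shown because both the resident gene and the inserted cDNA encode it. It is encoded by coding exons 1, 2 and 3 of Hmga2, on the minus strand of chromosome 10 in NCBIM37 (mm9), at chr10:119913009-119913119, chr10:119910308-119910394 and chr10:119899720-119899770. Capitals mark the codons of the arginine-glycine-arginine cores, of which each of these exons holds 1.
Hmga2 coding exon 1: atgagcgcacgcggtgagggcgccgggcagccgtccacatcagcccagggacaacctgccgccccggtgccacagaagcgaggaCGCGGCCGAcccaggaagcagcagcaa
Hmga2 coding exon 2: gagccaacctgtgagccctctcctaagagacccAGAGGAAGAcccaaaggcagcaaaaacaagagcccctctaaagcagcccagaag
Hmga2 coding exon 3: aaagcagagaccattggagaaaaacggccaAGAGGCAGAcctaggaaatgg
The counts are per gene and so do not separate the inserted cDNA from the resident Hmga2, whose exons span 4276 bases in the count table. The study amplified its constructs from cDNA or ordered them as synthetic genes. The bases of the inserted cDNA are not given in the sources used here.

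Summed counts on genes were 34952136 and 13465399 in KO a and b and 31022941 and 14585417 in the Hmga2 add-back a and b, so that batch a was the deeper batch in both groups. The labelled cell type was visible in all 4 samples, where the 24 pluripotency genes summed to between 7852 and 9206 CPM (read counts scaled to library size with edgeR's TMM factors). Of 12 markers of feeder fibroblasts, 5 passed the filter, with a summed level of 22.6 and 17.8 CPM in KO and 31.1 and 18.7 CPM in the Hmga2 add-back, and Dcn, Lum and Postn had 0 counts in all 4 samples. Unless stated otherwise, log2 fold changes, their standard errors (SE) and p-values are from edgeR's quasi-likelihood test on all 9 samples with batch as a term, and adjusted p-values are Benjamini-Hochberg values over 13912 genes. Calls required a 2-fold difference or more together with an adjusted p below 0.01. The replicates of a genotype are cultures of the same line that differed in culture day, batch and depth. The p-values therefore measure the spread between these samples only.

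Hmga2 itself was the gene with the clearest difference. Its level was 18.9 and 13.8 CPM in KO a and b, and 249 and 222 CPM in the Hmga2 add-back a and b. The groups did not overlap, and the Hmga1 add-back (18.5 and 17.9 CPM) and WT (12.8 to 23.8 CPM) stood with KO. Hmga2 rose 14.5-fold, a log2 fold change of 3.86 (SE 0.20, 95% interval 3.39 to 4.32, edgeR adjusted p = 5.58e-04), and was higher in both batches, by 3.68 in a and 3.96 in b on the log2(CPM + 0.5) scale. Without KO a the fold change was 3.91 with an edgeR adjusted p of 0.126, and without KO b it was 3.81 with an edgeR adjusted p of 0.0904, so that the call needed both KO samples.

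Per exonic length, Hmga2 stood at 3.83 ± 0.84 RPKM in KO and 55.1 ± 4.5 RPKM in the Hmga2 add-back (mean ± SD, n = 2 each). By the protein sequence given for the construct, the inserted cDNA holds the whole coding part, 324 of the 4276 exonic bases. Whether it holds untranslated parts is not given in the sources used here, and RPKM over the full length understates a cDNA without them, so the Hmga2 level is not comparable per length with that of other genes. Hmga1 stood at 156.5 ± 62.4 RPKM in WT (n = 3), 76.5 ± 41.7 RPKM in KO and 58.4 ± 12.8 RPKM in the Hmga2 add-back (n = 2 each). The Hmga1 transcript was thus still counted in the KO, at 217 and 96.1 CPM, and at 138 and 101 CPM in the Hmga2 add-back, with a log2 fold change of -0.31 (SE 0.17, edgeR adjusted p = 0.877). The study reports that the KO allele lost a splice donor site, that the aberrant transcript decays and that a shorter isoform lacking an exon remains. It detected no Hmga1 protein in the KO by Western blot. Counts per gene do not tell isoforms apart, and Hmga1 has a pseudogene with which reads can be shared. The Hmga1 count by itself therefore does not check the KO label. In the Hmga1 add-back the Hmga1 count was 184 and 123 CPM, within the range of the KO samples (74.9 ± 21.2 RPKM, n = 2), so this count does not check the label of that group either. For that group the study reports an Hmga1 protein level comparable to WT. Whether the inserted Hmga1 cDNA is counted under Hmga1 was not tested.

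Igf2bp2, which lies on chromosome 16 (chr16:22059082-22163372 in NCBIM37), was the other gene past an adjusted p of 0.05. It had 134.3 and 133.9 CPM in KO a and b, and 363 and 429 CPM in the Hmga2 add-back a and b. The WT samples (99.7 to 149 CPM) and the Hmga1 add-back (153.5 and 143 CPM) stood near KO and far below the Hmga2 add-back. The log2 fold change was 1.56 (SE 0.13, 95% interval 1.26 to 1.85), or 2.94-fold, with an edgeR adjusted p of 0.0117, just short of the threshold of 0.01. The difference was 1.43 in batch a and 1.67 in batch b. Without the replicate block the edgeR adjusted p was 0.253, and without 1 of the 4 samples compared it lay between 0.0986 and 0.345, with a log2 fold change of 1.47 to 1.65 in those fits.

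The Igf2bp2 promoter is shown as the start of the one gene beside Hmga2 past an adjusted p of 0.05. These are the RefSeq bases from 250 before to 50 after its start on the minus strand, which matched NCBIM37 once, at chr16:22163323-22163622. Capitals would mark runs of at least 6 A or T bases in any order, and there is none.
Igf2bp2 promoter: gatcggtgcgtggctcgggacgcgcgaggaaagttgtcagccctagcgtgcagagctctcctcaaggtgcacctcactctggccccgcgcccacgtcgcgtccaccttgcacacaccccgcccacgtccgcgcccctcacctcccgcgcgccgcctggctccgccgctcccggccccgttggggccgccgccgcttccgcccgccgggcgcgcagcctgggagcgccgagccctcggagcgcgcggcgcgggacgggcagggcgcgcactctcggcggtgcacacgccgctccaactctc
Its AT content was 23.3%, against a median of 47.3% and a lower quartile of 38.3% over 32851 RefSeq mouse promoters of the same length, and 69.6% of all those promoters hold such a run.

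**Figure D1:**
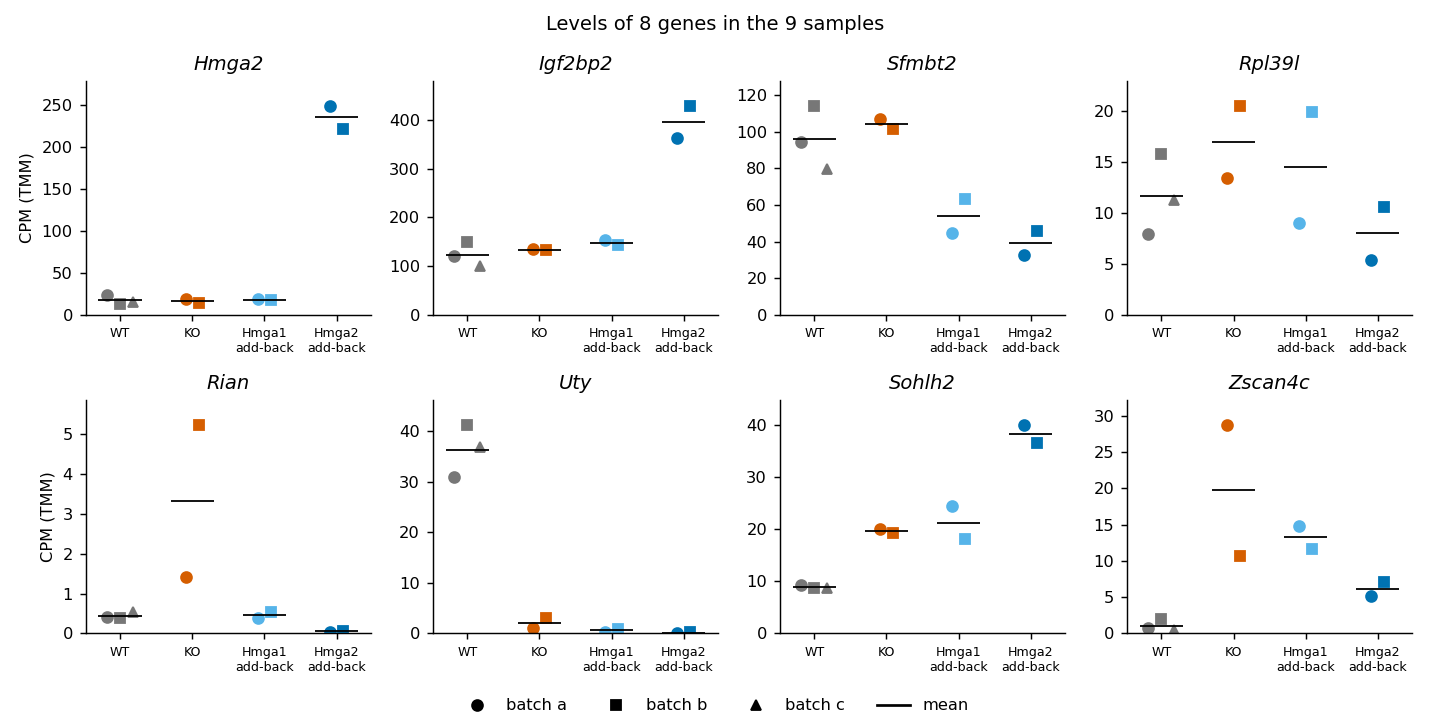
Level in CPM (linear axes from 0) of 8 genes in each of the 9 samples, by genotype, with batch as the symbol and the mean as a bar. Hmga2 and Igf2bp2 stood apart from the other genotypes in the Hmga2 add-back, Sfmbt2 was lower in both add-backs, and Uty was far below WT in KO and both add-backs.

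The relatives of Igf2bp2 and the genes of the let-7 pathway stood near their KO levels. Of 19 genes listed for this axis, all were tested and 2 had an unadjusted p under 0.05, Hmga2 and Igf2bp2 themselves, both higher (background for higher genes 2.62%). Hmga2 was the inserted gene and the list was chosen with earlier results known, so this count does not test the list. Igf2bp1 was at 1046 and 982 CPM in KO and 753 and 1019 CPM in the Hmga2 add-back, and the groups overlapped. Igf2bp3 was at 91.6 and 109 CPM in KO and 94.8 and 124 CPM in the Hmga2 add-back, also overlapping. Lin28a and Lin28b, which block let-7 maturation, had log2 fold changes of -0.24 (SE 0.20) and 0.16 (SE 0.12), and Dicer1, which cuts microRNA precursors, one of -0.20 (SE 0.11). Of the 19 genes, 16 had a 95% interval within a 2-fold change in either direction.

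Over all genes, 1 was called in the Hmga2 add-back against KO, 0.00719% of those tested, and this was Hmga2. With the limit on the adjusted p set at 0.05, 2 genes or 0.0144% were called, Hmga2 and Igf2bp2, both higher. At an unadjusted p under 0.05, 364 genes (2.62%) were higher and 344 (2.47%) lower, together 708 where 696 are expected with no difference and evenly spread p-values. The same fit gave 177 such genes between the add-backs and 390 for the Hmga1 add-back against KO. Against WT it gave 1747 for KO and 2352 for the Hmga2 add-back. The value of 696 is thus no sure level for no difference here. Both samples of the Hmga2 add-back lay above both KO samples for 1466 genes (10.5%) and below them for 1373 (9.87%). The Wald test of DESeq2 called 10 genes, Hmga2 and Igf2bp2 as higher and Sfmbt2, Uty, Upp1, Ddx3y, Eif2s3y, Rian, Rpl39l and Tenm4 as lower, and limma-trend called Hmga2 and Igf2bp2.

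The precision followed the level of the gene. For the 2407 genes at 100 CPM or more the median SE was 0.12 and the half-width of the 95% interval 0.28 on the log2 scale. For the 1204 genes under 1 CPM these were 0.52 and 1.19, so that for the typical gene there the interval was wider than a 2-fold change. Of 273 genes with a fitted change of at least 2-fold, 171 higher and 102 lower, 141 were under 1 CPM and 115 between 1 and 10 CPM. The remaining 17 were Hmga2, Igf2bp2 and Xaf1 as higher and 14 lower genes. In all, 10501 genes (75.5%) had a 95% interval within a 2-fold change.

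The batches shared few of these differences. On the log2(CPM + 0.5) scale, 26.6% of genes were higher in the Hmga2 add-back in both batches, 27.0% lower in both and 46.4% opposite in sign. The median size of the difference was 0.22 in batch a and 0.13 in batch b. A difference of at least 1 was seen for 380 genes in batch a and 105 in batch b, and for 34 in both, of which 8 were higher in both, 10 lower in both and 16 opposite. Across genes, with counts scaled to the smallest library and a pseudocount of 8, the differences in a and b had a Pearson r of 0.109 and a Spearman rho of 0.0977. This is a description over 13912 genes, which are not independent replicates and share their libraries.

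**Figure D2:**
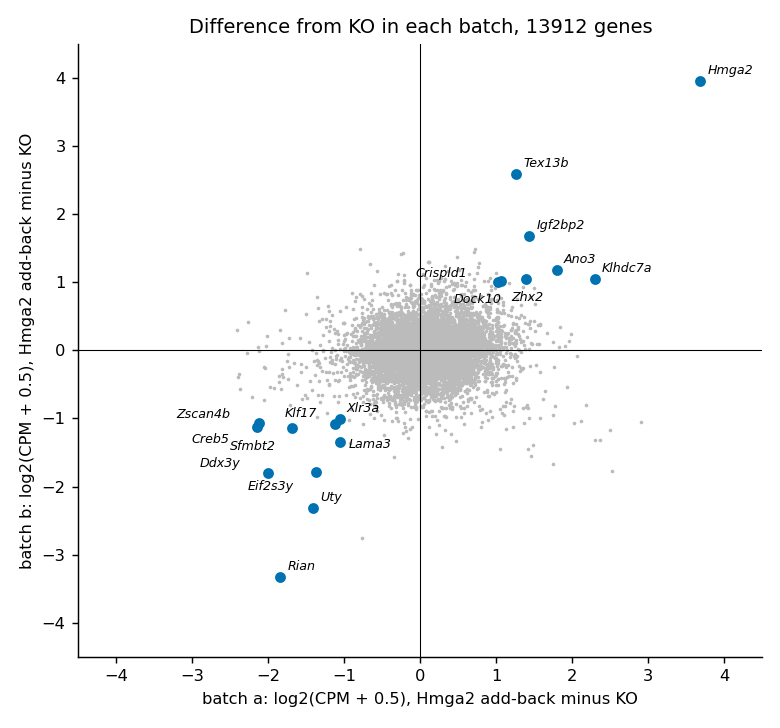
Difference of log2(CPM + 0.5) between the Hmga2 add-back and KO in batch a (x axis) and batch b (y axis) for 13912 genes, each a grey point. The 18 genes with a difference of at least 1 and the same sign in both batches are named, 8 higher, led by Hmga2, and 10 lower.

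Sfmbt2, a Polycomb-group gene on chromosome 2 (chr2:10292137-10516880), was the lower gene with the smallest p. Its level was 107 and 102 CPM in KO a and b and 32.9 and 45.7 CPM in the Hmga2 add-back a and b. WT lay at 79.9 to 114 CPM with KO, whereas the Hmga1 add-back, at 44.6 and 63.4 CPM, lay with the Hmga2 add-back. The log2 fold change against KO was -1.45 (SE 0.16, edgeR adjusted p = 0.0555), not past the threshold. Between the add-backs the log2 difference was -0.46 (SE 0.16, edgeR adjusted p = 0.9999), Hmga2 minus Hmga1.

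RefSeq gives Sfmbt2 2 starts, and the promoter of the second, chr2:10293813-10294112 on the plus strand of NCBIM37, is printed for comparison with that of Igf2bp2. Capitals mark its 1 run of at least 6 A or T bases.
Sfmbt2 promoter: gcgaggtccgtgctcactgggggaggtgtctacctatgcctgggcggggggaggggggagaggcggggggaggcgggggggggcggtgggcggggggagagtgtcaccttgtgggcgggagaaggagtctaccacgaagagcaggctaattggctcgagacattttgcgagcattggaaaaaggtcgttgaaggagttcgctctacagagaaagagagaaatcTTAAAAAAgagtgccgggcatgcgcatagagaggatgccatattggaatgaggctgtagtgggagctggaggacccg
The AT content was 40% here and 42.3% at the first start, which holds no such run. Which start the cells use cannot be read from counts per gene.

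The 12 lower genes named by rule had the smallest unadjusted p among the 92 with a fitted change of at least 2-fold and the same sign in both batches, and none passed an adjusted p of 0.05. Upp1, which encodes uridine phosphorylase, was at 137 and 152 CPM in KO and at 53.2 and 96.7 CPM in the Hmga2 add-back, with WT below KO at 74.2 to 105.6 CPM. Its log2 fold change was -1.01 (SE 0.17, edgeR adjusted p = 0.310). Rpl39l, a paralog of a large-subunit ribosomal protein, was at 13.4 and 20.5 CPM in KO and 5.42 and 10.6 CPM in the Hmga2 add-back, with the groups apart.

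A number of these genes were low in WT, higher in KO and lower again in the Hmga2 add-back, with the Hmga1 add-back between KO and the Hmga2 add-back or near the latter. Lama3, a laminin alpha chain, had 2.85 to 3.65 CPM in WT, 8.78 and 10.1 CPM in KO and 3.94 and 3.66 CPM in the Hmga2 add-back, with 6.26 and 7.35 CPM in the Hmga1 add-back. Creb5, a leucine zipper transcription factor, had 0.57 to 0.79 CPM in WT, 3.56 and 1.82 CPM in KO and 0.41 and 0.56 CPM in the Hmga2 add-back, with 0.89 and 0.97 CPM in the Hmga1 add-back. Zscan5b, a zinc finger gene, had 1.29 to 1.78 CPM in WT, 5.86 and 4.64 CPM in KO and 1.98 and 2.11 CPM in the Hmga2 add-back, with 3.53 and 4.35 CPM in the Hmga1 add-back. Smoc1, a secreted calcium-binding protein, followed the same order, with 9.34 to 11.95 CPM in WT, 23.3 and 18.2 CPM in KO and 11.9 and 8.73 CPM in the Hmga2 add-back, with 14.3 and 9.45 CPM in the Hmga1 add-back. The KO samples enter both comparisons behind such an order, so it was given no test. Cphx1, a homeobox gene, was at 13.02 and 9.20 CPM in KO and 4.32 and 5.49 CPM in the Hmga2 add-back, below its level in WT (9.14 to 12.3 CPM).

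Of 9 Y-linked genes listed, 3 were tested and each was below both KO samples in both Hmga2 add-back samples (background 9.87%). Each also had an unadjusted p under 0.05 (background 2.47%). The 3 genes lie on the same chromosome and the list was chosen with earlier results known, so these counts are no test of the list. Uty, a histone demethylase relative, had 1.07 and 3.04 CPM in KO and 0.089 and 0.21 CPM in the Hmga2 add-back. Eif2s3y, a translation initiation factor subunit, had 1.18 and 2.20 CPM in KO and 0.15 and 0.28 CPM in the Hmga2 add-back, and Ddx3y, an RNA helicase, 1.74 and 3.19 against 0.059 and 0.56 CPM. In WT the 3 genes summed to 85.6 to 124 CPM, against 3.98 and 8.44 CPM in KO, 1.41 and 3.45 CPM in the Hmga1 add-back and 0.30 and 1.06 CPM in the Hmga2 add-back. Their counts summed over the 2 samples were 6 against 78 for Uty, which after scaling to library size is 7.83% of the KO level (95% exact interval 2.79% to 17.8%, counting error only). For Eif2s3y the ratio was 12.9% (5.67% to 25.9%) and for Ddx3y 9.78% (4.56% to 18.7%). The edgeR adjusted p was between 0.102 and 0.253. Uba1y, a Y-linked ubiquitin-activating enzyme gene that was not on the list and was picked after its values were seen, had 0.84 and 0.46 CPM in KO and 0 and 0.14 CPM in the Hmga2 add-back, and WT stood with KO at 0.82 to 1.16 CPM. In bulk RNA, fewer cells with a transcript and less transcript per cell cannot be told apart.

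The non-coding RNA Rian, expressed from the maternal copy of an imprinted region of chromosome 12, was the gene with the largest fitted decrease. Its counts were 119 in the 2 KO samples together and 2 in the 2 Hmga2 add-back samples, 1.71% of the KO level (95% exact interval 0.21% to 6.31%, counting error only). Rian lay at 1.40 and 5.25 CPM in KO, 0.030 and 0.070 CPM in the Hmga2 add-back, 0.37 and 0.52 CPM in the Hmga1 add-back and 0.39 to 0.54 CPM in WT, so that KO was the group that stood above the rest. Meg3, from the same region, was at 0.45 and 2.89 CPM in KO and 0.059 and 0 CPM in the Hmga2 add-back. Dlk1, Mirg and Rtl1, also listed as imprinted, did not pass the filter. Their counts in KO a and b were 18 and 3, 7 and 8, and 3 and 3. In the Hmga2 add-back a and b they were 13 and 4, 1 and 0, and 1 and 2. Of 20 imprinted genes tested, 4 were lower at an unadjusted p under 0.05 (background 2.47%) and 0 higher, none with an adjusted p under 0.05, and without KO a 2 were lower. Beside Rian and Meg3 these were Snrpn, at 149 and 135 CPM in KO and 111 and 99.1 CPM in the Hmga2 add-back, and Plagl1, at 0.39 and 0.46 against 0.089 and 0.070 CPM. H19, Igf2r, Peg3 and Slc38a4 had log2 fold changes between -0.11 and -0.03.

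The 12 higher genes named by the same rule, from 146 candidates, were mostly at low levels, and none apart from Hmga2 and Igf2bp2 had an adjusted p under 0.05. Xaf1, which encodes an antagonist of the apoptosis inhibitor XIAP, was at 5.95 and 7.53 CPM in KO and 15.9 and 14.8 CPM in the Hmga2 add-back. Its log2 fold change was 1.20 (SE 0.24, unadjusted p = 9.85e-04, edgeR adjusted p = 0.761). Cdkn2b, an inhibitor of cyclin-dependent kinases, was at 1.15 and 1.14 CPM in KO and 3.64 and 2.11 CPM in the Hmga2 add-back, with WT at 2.25 to 3.94 CPM. Zhx2, a zinc finger and homeobox repressor, was at 1.63 and 1.75 CPM in KO and 5.07 and 4.16 CPM in the Hmga2 add-back.

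Pla2g4a, the cytosolic phospholipase that frees arachidonic acid, was at 3.90 and 2.96 CPM in KO and 10.1 and 5.35 CPM in the Hmga2 add-back. Tgfa, a ligand of the epidermal growth factor receptor, was at 1.52 and 1.06 CPM in KO and 4.98 and 2.18 CPM in the Hmga2 add-back. Hoxc4 was at 0.48 and 0.30 CPM against 1.45 and 1.27 CPM, and the chloride channel relative Ano3 at 0.84 and 0.53 CPM against 4.15 and 1.83 CPM. In each of these the groups did not overlap, as for 10.5% of all genes. Tex13b, a testis-expressed gene, had 13 and 1 counts in KO a and b and 95 in the 2 Hmga2 add-back samples together, a ratio of 690% (95% exact interval 392% to 1310%, counting error only), and stood at 1.44 and 2.85 CPM in the Hmga1 add-back against 1.57 and 2.96 CPM in the Hmga2 add-back. Its log2 fold change was 2.89, 5.05 without KO a and 2.22 without KO b. Klhdc7a, a kelch-domain gene, was at 1.68 and 0.76 CPM in KO and at 10.2 and 2.11 CPM in the Hmga2 add-back, so that the batches differed widely. The uncharacterised transcript C330024D21Rik was at 1.77 and 3.88 CPM against 5.89 and 7.75 CPM. Several of these genes had raised fitted levels in the Hmga1 add-back too. Its log2 fold change against KO was 1.55 for Klhdc7a, 0.996 for Ano3, 0.91 for Hoxc4 and 0.875 for C330024D21Rik. It was 0.87 for Tgfa, 0.74 for Zhx2, 0.53 for Cdkn2b, 0.405 for Xaf1 and -0.03 for Pla2g4a. Klhdc7a was at 7.55 and 0.75 CPM in that group and Ano3 at 2.30 and 0.45 CPM, above KO in batch a only. These rises against the shared KO samples were thus not all particular to the Hmga2 add-back.

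The Hmga2 add-back was also set against the Hmga1 add-back directly, in the same fit, where KO samples bear on the batch term and the spread only. In that contrast 1 gene was called, Hmga2, or 0.00719% of those tested, and at an adjusted p under 0.05 there were 2, Hmga2 and Igf2bp2, or 0.0144%. The log2 difference was 3.70 (SE 0.20, edgeR adjusted p = 7.32e-04) for Hmga2 and 1.41 (SE 0.13, edgeR adjusted p = 0.0244) for Igf2bp2. Without KO a or KO b in the fit, Hmga2 had an edgeR adjusted p of 0.0196 or 0.0141 and 0 genes were called, with 155 at an unadjusted p under 0.05 in either, and without the Hmga2 add-back b 0 were called with 164. For all other genes named by rule the edgeR adjusted p was 0.9999, which does not show that the add-backs were alike. Against KO, the Hmga1 add-back had a log2 fold change of 0.15 (SE 0.13) for Igf2bp2, -0.99 (SE 0.15) for Sfmbt2, -0.83 (SE 0.16) for Upp1, -0.31 (SE 0.18) for Rpl39l and -0.03 (SE 0.30) for Pla2g4a. Both add-backs were compared with the same KO samples, so these values and those of the Hmga2 add-back share their error.

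**Figure D3:**
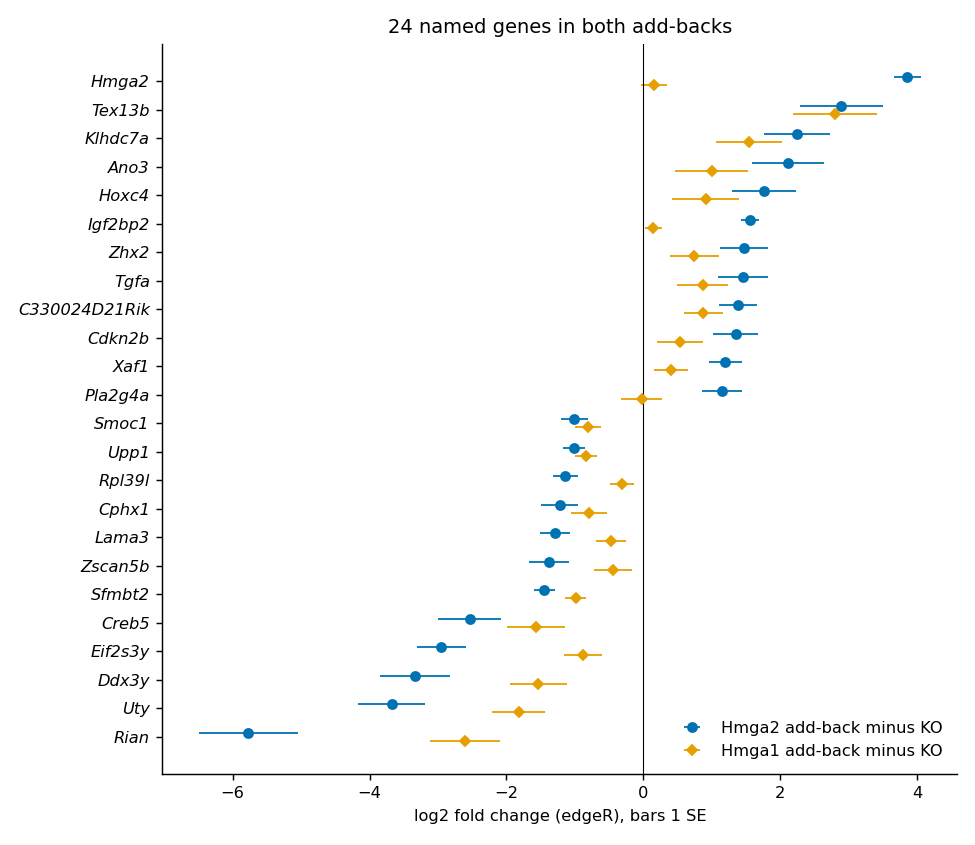
Log2 fold change from edgeR (x axis, bars 1 SE) against KO of the 24 genes named by rule, in the Hmga2 add-back (circles) and in the Hmga1 add-back (diamonds). Hmga2 and Igf2bp2 lay far from 0 in the Hmga2 add-back and at 0.16 and 0.15 in the Hmga1 add-back, both contrasts sharing the KO samples.

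Genes of 2-cell-like cells, a rare state of ESC cultures that expresses transcripts of the embryo's first cleavage stage, had lower fitted levels in the Hmga2 add-back, none past an adjusted p of 0.05. Zscan4c, a telomere-associated zinc finger gene, was at 28.8 and 10.7 CPM in KO a and b and 5.18 and 7.04 CPM in the Hmga2 add-back a and b. Tcstv1 was at 3.42 and 1.14 CPM in KO and 0.44 and 0.49 CPM in the Hmga2 add-back. The groups did not overlap for either gene, but KO a lay far above KO b.

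Of 18 genes listed for this state, 13 were tested, all 13 had a lower fitted level, 11 at an unadjusted p under 0.05 (background 2.47%), and 9 had both samples below both KO samples (background 9.87%). The median log2 fold change was -1.58, against 0.00 over all genes. In batch a the median difference was -2.06 and in batch b -0.40 on the log2(CPM + 0.5) scale. In edgeR fits without KO a, or without the Hmga2 add-back a, 0 of the 13 had an unadjusted p under 0.05, with medians of -0.65 and -0.96, and DESeq2's Wald test on all samples gave 7. The Zscan4, Tcstv and Usp17l genes are families of near-identical copies among which a read with several alignments was placed at random, so the members are not separate measurements. Eif1a, the remaining member, was at 331 and 490 CPM in KO and 275 and 445 CPM in the Hmga2 add-back. In WT, Zscan4c was at 0.42 to 2.02 CPM.

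**Figure D4:**
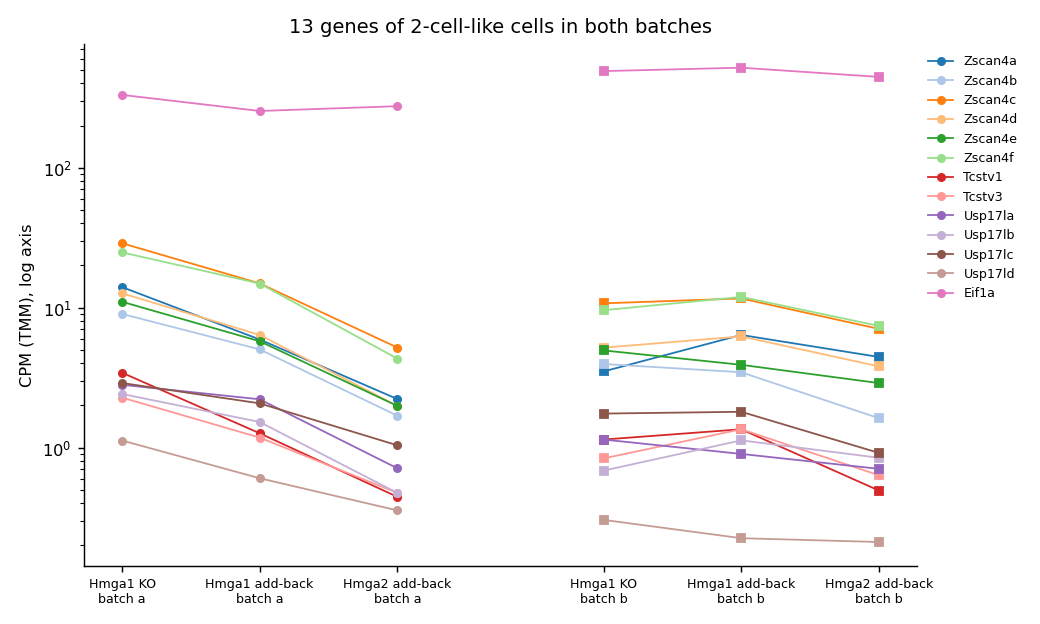
Level in CPM (log axis) of 13 genes of 2-cell-like cells in KO and in the Hmga1 and Hmga2 add-backs, batch a on the left (circles) and batch b on the right (squares), each line 1 gene. In batch a the lines other than that of Eif1a lead steeply down from KO to the Hmga2 add-back, for Zscan4c from 28.8 to 5.18 CPM, and in batch b less so, for Zscan4c from 10.7 to 7.04 CPM.

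The same KO sample stood out for several other abundant genes. Calcoco2, an autophagy receptor, was at 184 CPM in KO a and between 41.5 and 62.0 CPM in the other 3 samples. Id3, an inhibitor of basic helix-loop-helix factors, was at 27.8 CPM in KO a and 6.55 to 8.44 CPM in the others, and Dppa3, a maternal-effect gene, at 23.9 CPM against 5.42 to 6.72 CPM. These genes were picked after their values were seen, from the 14 lower genes at 10 CPM or more.

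Most pluripotency genes were at similar levels in both groups, with log2 fold changes from -1.26 to 0.34 and 15 of 24 lower. Of 24 tested, 1 was lower at an unadjusted p under 0.05 (background 2.47%) and 0 higher (background 2.62%), the median log2 fold change was -0.06, and 21 had a 95% interval within a 2-fold change. Pou5f1 was at 907 and 878 CPM in KO and 668 and 976 CPM in the Hmga2 add-back, and Nanog at 273 and 201 CPM against 269 and 240 CPM. Sox2 had a log2 fold change of 0.01 (SE 0.16) and Esrrb of 0.13 (SE 0.11).

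Chromatin proteins related to Hmga2 showed no change past the threshold. All 8 linker histone genes tested had log2 fold changes between -0.12 and 0.14 with 95% intervals within a 2-fold change. Of 11 other Hmg genes, Hmgxb4 alone had an unadjusted p under 0.05 (background for lower genes 2.47%), at 193 and 203 CPM in KO and 154 and 173 CPM in the Hmga2 add-back. Of 20 other AT-hook or AT-rich DNA binding genes, Satb1, an organiser of AT-rich DNA, was the 1 with an unadjusted p under 0.05 (background for higher genes 2.62%), at 6.004 and 8.29 CPM in KO and 9.69 and 12.2 CPM in the Hmga2 add-back. Of 14 tested genes linked to Hmga2 in other settings, 2 were higher at an unadjusted p under 0.05 (background 2.62%), Cdkn2b and Igf2bp2, which had already been described. That list too was chosen with earlier results known, so its count is no test of the list. Ccna2, the cyclin of S phase, had a log2 fold change of -0.14 (SE 0.12).

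Among 28 cell cycle genes, 22 had a lower fitted level, as had 6934 of all 13912, and 0 an unadjusted p under 0.05, with a median of -0.13, -0.24 in batch a and -0.02 in batch b. Mki67, a proliferation marker, had a log2 fold change of -0.01 (SE 0.21). Among 15 germ cell genes, 9 had a lower fitted level, the median was -0.10, and 2 were higher at an unadjusted p under 0.05 (background 2.62%). These were Hydin, a gene of motile cilia, with a log2 fold change of 0.40 (SE 0.17) and overlapping groups, and Sohlh2, a germline helix-loop-helix factor, at 20.1 and 19.2 CPM in KO and 40.1 and 36.6 CPM in the Hmga2 add-back. The groups lay far apart for Sohlh2, the Hmga1 add-back (24.4 and 18.1 CPM) stood with KO and WT was lower (8.63 to 9.20 CPM). The log2 fold change of Sohlh2 was 0.97 (SE 0.15, edgeR adjusted p = 0.253).

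Immediate early genes, which respond within minutes to serum and handling, had a median log2 fold change of 0.50 over 11 genes, of which 3 were higher at an unadjusted p under 0.05 (background 2.62%). Jun was at 5.39 and 5.32 CPM in KO and 14.8 and 7.18 CPM in the Hmga2 add-back, Fos at 1.80 and 2.28 against 7.17 and 2.54 CPM, and Dusp1, a phosphatase of MAP kinases, at 20.5 and 17.2 against 38.4 and 18.2 CPM. The median difference was 0.89 in batch a and 0.08 in batch b, and without the Hmga2 add-back a, or without KO a, 0 genes had an unadjusted p under 0.05.

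Markers of differentiated lineages were variable, and those of primitive endoderm and mesendoderm were low. The neural and epiblast genes tested summed to 412.5 and 367.5 CPM in KO and 258.9 and 346.9 CPM in the Hmga2 add-back. The trophoblast genes tested summed to 139.4 and 83.5 CPM in KO and 191.5 and 75.8 CPM in the Hmga2 add-back. The 6 primitive endoderm genes summed to 10.4 and 31.9 CPM in KO and 27.0 and 22.1 CPM in the Hmga2 add-back, with a median difference of 1.13 in batch a and -0.58 in batch b, and 0 had an unadjusted p under 0.05. The 4 trophoblast genes tested had a median of 0.04, and Cdx2 and Elf5, which did not pass the filter, had 4 counts or fewer in each of the 4 samples. Of 9 neural and epiblast genes, 7 had a lower fitted level, and the median log2 fold change was -0.29. The median difference was -0.64 in batch a and 0.13 in batch b. Both Hmga2 add-back samples lay below both KO samples for 3 (background 9.87%) and above them for 1 (background 10.5%). Map2 was higher (background 2.62%) and Dnmt3b, a DNA methyltransferase of the epiblast, lower (background 2.47%) at an unadjusted p under 0.05. Dnmt3b was at 193 and 208 CPM in KO and 107.5 and 173 CPM in the Hmga2 add-back. Of 3 mesendoderm genes, Eomes was higher at an unadjusted p under 0.05 (background 2.62%), at 2.61 and 3.65 CPM against 5.36 and 4.58 CPM. Of the 5 tested feeder fibroblast genes, Thy1 was higher at an unadjusted p under 0.05 (background 2.62%). It was at 5.64 and 6.16 CPM against 11.7 and 8.24 CPM.

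**Figure D5:**
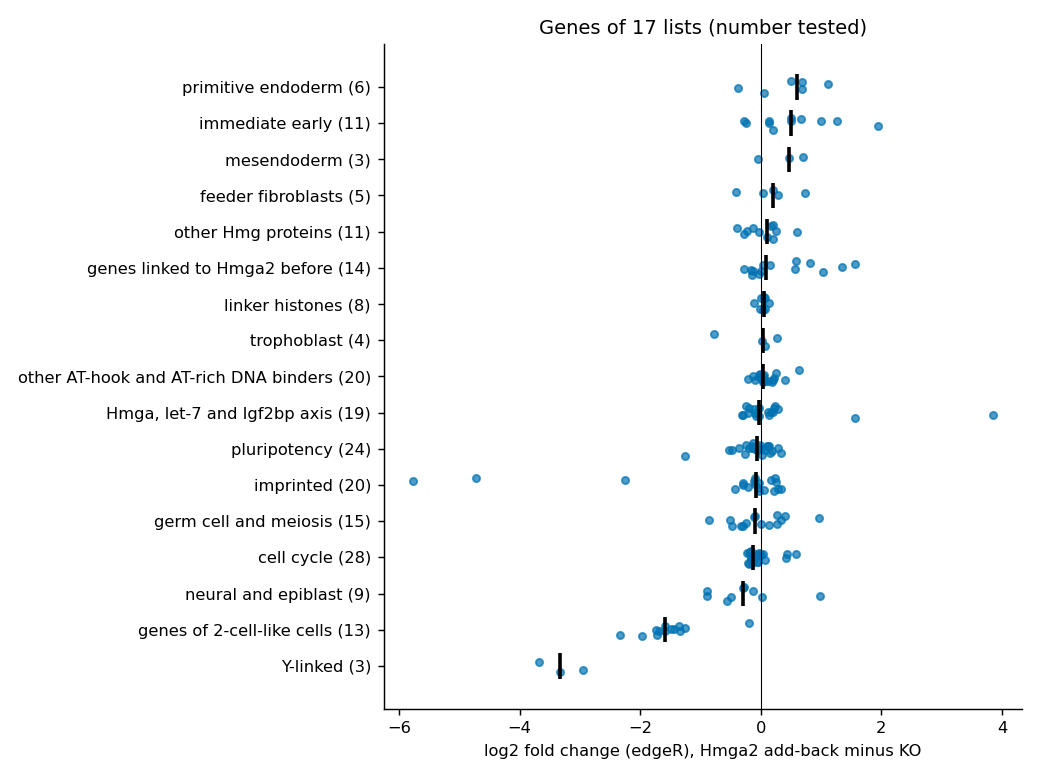
Log2 fold change from edgeR (x axis) of the tested genes of 17 lists, each point 1 gene and the black bar the median of the list. Most lists centred near 0, the 13 genes of 2-cell-like cells had a median of -1.58 and the 3 Y-linked genes one of -3.34.

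Genes next to Hmga2 and Igf2bp2 stood near their KO levels. Within 1 Mb of Hmga2, 10 genes were tested and 0 called, with a median log2 fold change of -0.05. Irak3, a brake on interleukin receptor signalling located 159145 bases away, was the 1 with an unadjusted p under 0.05 (background for lower genes 2.47%). It was at 16.6 and 6.92 CPM in KO and 4.62 and 5.07 CPM in the Hmga2 add-back. Its difference was -1.74 in batch a and -0.41 in batch b on the log2(CPM + 0.5) scale. Within 1 Mb of Igf2bp2, 19 genes were tested and 0 called, with a median of -0.05, and the nearest, Senp2 at 9740 bases, had a log2 fold change of 0.03 (SE 0.11). Liph, a lipase, was the 1 with an unadjusted p under 0.05 (background for lower genes 2.47%), with a log2 fold change of -0.46 (SE 0.16) and overlapping groups. It was at 71.9 and 53.5 CPM in KO, 55.8 and 36.2 CPM in the Hmga2 add-back and 29.0 to 31.6 CPM in WT.

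AT content of the gene in NCBIM37 was available for 12481 genes, and its Pearson correlation with the log2 fold change was -0.02 across genes, -0.04 with the difference in batch a and 0.05 with that in batch b. In the fifth of genes with the highest AT content, 58.3% to 67.8%, the median log2 fold change was 0.02, and in the fifth with the lowest, 26.3% to 48.2%, it was 0.03. Medians per chromosome lay between -0.03 on chromosome 6 and 0.04 on chromosome 1, apart from the Y chromosome with the 3 genes placed on it.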

How the data were processed

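Total RNA was depleted of ribosomal RNA, made into strand-specific libraries and sequenced as 50-base single-end reads. The authors aligned reads to the mouse genome (mm9) with Bowtie, placed a read with several alignments at 1 of them at random, and deposited the raw count of same-strand reads per gene. Whether the inserted Hmga2 cDNA holds untranslated parts is not given in the sources used here.

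Of the 15 samples, the 9 of the KO experiment were used. Counts were fitted with edgeR 4.0.16 in R 4.3.3, in a quasi-likelihood model with genotype and the letter of the batch as terms, over the genes averaging 10 counts or more, with TMM factors and Benjamini-Hochberg adjustment. Calls required a 2-fold difference or more together with an adjusted p below 0.01. The letters were kept as a replicate block because the study names them as batches and used a batch term. The differences between samples a and b correlated across genes between genotypes, with r from 0.356 to 0.811. Depth was 13465399 to 34952136 counts per sample, and counting intervals cover counting error only. CPM values carry TMM factors, and RPKM values divide them by exonic length. Genes were placed on NCBIM37 by symbol, 12481 of those tested, and promoter sequences are from RefSeq (GRCm38.p6).

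Genes named by rule were the 12 of smallest p per direction among those with a fitted change of at least 2-fold and the same sign in both batches. The comparison, the gene lists and the tests were chosen with earlier results of these data known. Alternatives were other scalings and filters, DESeq2 1.42.0, limma-trend (limma 3.58.1), no replicate block, only the 2 groups compared, and leaving out each sample. The scripts were tested on simulated data.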

Additional observations from a re-analysis of the deposited data

How the results depend on the processing

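The Hmga2 add-back against KO gave 1 call under the settings stated. It also gave 1 with DESeq2 size factors, with summed counts and at a mean count of at least 50. With the filter over the 4 samples compared, or without a minimum fold change, it gave 1 as well. Without the replicate block, which ignores the pairing, it gave 1, with edgeR adjusted p-values of 0.253 for Igf2bp2 and 0.840 for Sfmbt2. It gave 3 calls without a filter on low counts (Hmga2, Igf2bp2 and Sfmbt2), 10 with the DESeq2 Wald test, and 2 (Hmga2 and Igf2bp2) with limma-trend, with only the samples of the 2 groups, and at an adjusted p under 0.05. With 1 sample left out it gave 0 to 2 calls. It gave 0 without KO a, where 109 genes had an unadjusted p under 0.05, and 0 without KO b, where 922 did. The contrast with the Hmga1 add-back gave 1 call, 2 without a filter, 3 with the DESeq2 Wald test, 3 with only the 2 groups, 2 at an adjusted p under 0.05, and 0 to 1 with 1 sample left out, 0 of them without KO a, KO b or the Hmga2 add-back b. A group left with 1 sample was assumed to vary like the others. The cause of these differences was not tested. At a mean count of at least 50, 19 of the 24 genes named by rule were tested. Under 1 CPM the median half-width of the 95% interval was 1.19 on the log2 scale, more than a 2-fold change.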
